A study of Mus musculus with 6 samples.

Results

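Genes of iron uptake, storage and sensing were compared between leukaemia cells with and without detectable MYC reporter. The set held 9 genes chosen by name: Tfrc, Slc11a2, Slc40a1, Fth1, Ftl1, Aco1, Ireb2, Slc25a37 and Iscu. Of these, 8 had at least 1 probe set that the platform annotation gives to that gene alone, among 18193 genes measured in this way. The 8 genes had 17 such probe sets of 34945 in all, and every one is described. Ftl1, the ferritin light chain gene, is named by 3 probe sets only together with other symbols, so it has no value here. Both groups were spleen cells of C57BL/6 mice aged 12 weeks, of genotype Notch1[delta]E mycGFP, taken 4 weeks after transplantation as CD25+ cells. Notch1[delta]E is a truncated, constitutively active receptor that drives T-cell acute lymphoblastic leukaemia (T-ALL), and GFP reports MYC. Mononuclear cells of congenic recipients were sorted on mCherry and GFP, and the RNA was hybridised to 6 arrays: 3 for the MycGFP negative and 3 for the MycGFP positive sort, numbered 1 to 3 within a sort, with 3 leukaemias called independent in the design text. The labels do not state which promoter drove Notch1[delta]E, and both groups carry the same alleles, so the contrast is within leukaemia cells and has no normal T cell.

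Cells take up iron mainly as transferrin bound to the transferrin receptor, the product of Tfrc, and the metal leaves the endosome through the transporter encoded by Slc11a2. Ferritin, built of heavy and light chains, stores it, ferroportin, the product of Slc40a1, exports it, and mitochondria use it to build iron-sulfur clusters and haem. The iron regulatory proteins IRP1 and IRP2, encoded by Aco1 and Ireb2, bind hairpins called iron-responsive elements (IREs) in mRNAs. When iron is scarce they stabilise Tfrc mRNA and block translation of ferritin mRNA. An array measures the mRNA level only, so control of translation is not seen here. Proliferating lymphocytes and T-ALL cells display much transferrin receptor, and TFRC is known as a MYC target.

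Upstream sequences of Tfrc and Fth1 are shown because one carries the called change of the set and the other is the bright storage gene beside it. They are the 250 bases before RefSeq start sites in GRCm38.p6, and 5 of the 9 genes had an entry, which Slc11a2, Slc40a1, Slc25a37 and Iscu did not. Capitals mark matches, on either strand, to the E-box CACGTG bound by MYC and MAX, the GC box GGGCGG, the cyclic AMP response core TGACGT and the motif CCAAT. The windows lie at chr16:32608646-32608895 and chr16:32608872-32609121 for 2 alternative Tfrc starts and at chr19:9982396-9982645 for Fth1, all on the plus strand.
Tfrc upstream start: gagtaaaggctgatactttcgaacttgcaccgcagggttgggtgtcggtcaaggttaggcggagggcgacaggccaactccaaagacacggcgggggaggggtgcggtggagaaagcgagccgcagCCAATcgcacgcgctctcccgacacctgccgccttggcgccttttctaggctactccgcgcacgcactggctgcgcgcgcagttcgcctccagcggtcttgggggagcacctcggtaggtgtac
Tfrc downstream start: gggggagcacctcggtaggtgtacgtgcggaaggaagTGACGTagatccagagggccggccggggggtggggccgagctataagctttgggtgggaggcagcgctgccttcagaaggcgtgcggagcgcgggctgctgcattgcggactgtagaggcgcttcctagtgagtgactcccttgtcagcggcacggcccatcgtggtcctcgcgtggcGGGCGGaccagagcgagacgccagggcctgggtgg
Fth1 downstream start: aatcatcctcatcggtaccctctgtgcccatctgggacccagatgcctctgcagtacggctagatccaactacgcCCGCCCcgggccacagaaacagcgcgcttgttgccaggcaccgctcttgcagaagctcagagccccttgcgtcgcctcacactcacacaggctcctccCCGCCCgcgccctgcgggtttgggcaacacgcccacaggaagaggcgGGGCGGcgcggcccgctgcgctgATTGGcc
The letters CACGTG occur in none of the 7 windows of the 5 genes, and 6.02% of all 32851 windows hold them. The Tfrc downstream window holds TGACGT, 213 bases before its start, as do 6.47% of all windows. The other Fth1 window, chr19:9980350-9980599, holds 0 of the 4 motifs and is not printed. GC boxes number 3 in the printed Fth1 window and 1 in the Tfrc downstream window, against at least 1 in 32.7% of all windows, and 33.8% hold CCAAT. No matches overlapped one another in these windows. These letters describe the windows and say nothing on the binding of any factor.

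Intensities are on a linear scale, with array medians of 30.5 to 32.7, and values near that level may be background. In the test of all genes (limma, two-sided, Benjamini-Hochberg adjusted p under 0.05) the MycGFP positive cells showed a higher level for 4.62% of genes and a lower one for 1.51%. Myc rose by 1.37 on the log2 scale (SE 0.24, adjusted p = 0.0329). All 13 measured T cell and leukaemia markers lay above the array medians on all arrays, with a mean Il2ra (CD25) intensity of 8551 in negative and 7578 in positive cells. Their sum was lower in the positive sort, at 67774 to 76999 beside 85669 to 90908, and Cd4 read 5120, 5966 and 3208 on negative but 871, 406 and 723 on positive arrays. The summed intensity of 9 erythroid markers spanned 5744 to 6648 in negative and 5054 to 6678 in positive cells, so the groups overlapped. Hba-a2 made up most of that sum, at 4813 to 6506, while Hbb-b2 read 38.2, 370.2 and 345 on negative and 53.5, 74.4 and 142 on positive arrays. Slc4a1, the only other erythroid marker with a mean above the array median, read 12.2, 304 and 276, then 144, 73.7 and 303. The sum thus cannot show whether erythroid RNA was alike between arrays. Of 14 macrophage markers, 6, among them Adgre1, Itgam and Spic, lay below the medians on all arrays. The macrophage sum lay between 412 and 1373 in negative cells and between 358 and 571 in positive cells. The highest value was that of negative array 2, and Lyz2 gave 850 of it. On negative arrays 1 and 3 Lyz2 read 52.9 and 30.1, and on the positive arrays 42.3, 168 and 36.5. Neutrophil markers other than Csf3r stood apart on the arrays numbered 2. Csf3r lay below the medians, at 11.0 to 14.8 on all 6 arrays. The sum over all 8 markers was 1187, 13007 and 179 on negative arrays 1, 2 and 3, and 772, 3148 and 162 on the positive arrays. S100a8 and S100a9 were its largest terms on both arrays numbered 2, while Mpo read 622 on negative and 499 on positive array 2. In these bulk samples fewer cells of a type and less RNA per cell cannot be told apart.

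Tfrc, the transferrin receptor gene, was the 1 gene of the 8 that passed the test, and it was higher in MycGFP positive cells. Its brightest probe set read 2286, 1525 and 1169.6 on negative arrays 1, 2 and 3. On the positive arrays it read 5761, 4838 and 5622. Every positive value lay above every negative one, with no overlap. The mean went from 1660.3 ± 570.2 to 5407 ± 498 (SD, n = 3 each), a 3.37-fold ratio of geometric means. On the log2 scale Tfrc differed by 1.75 (SE 0.26), at a limma adjusted p = 0.0225 over all genes, and Tfrc ranked 364 by p among 18193 genes. The negative arrays were not alike: array 1 lay nearest to the positive group and array 3 farthest from it. Dropping negative array 2 raised the limma adjusted p to 0.0794, and dropping positive array 1, 2 or 3 raised it to 0.0740, 0.0814 or 0.0813, which ended the call at log2 differences of 1.71 to 1.83. Without both arrays numbered 2, where the neutrophil marker sum was highest, the log2 difference was 1.80 and the limma adjusted p 0.237. In that setting, and without positive array 2 alone, limma called 0 of all genes higher, with 1728 and 2209 higher at an unadjusted p under 0.05.

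**Figure D1:**
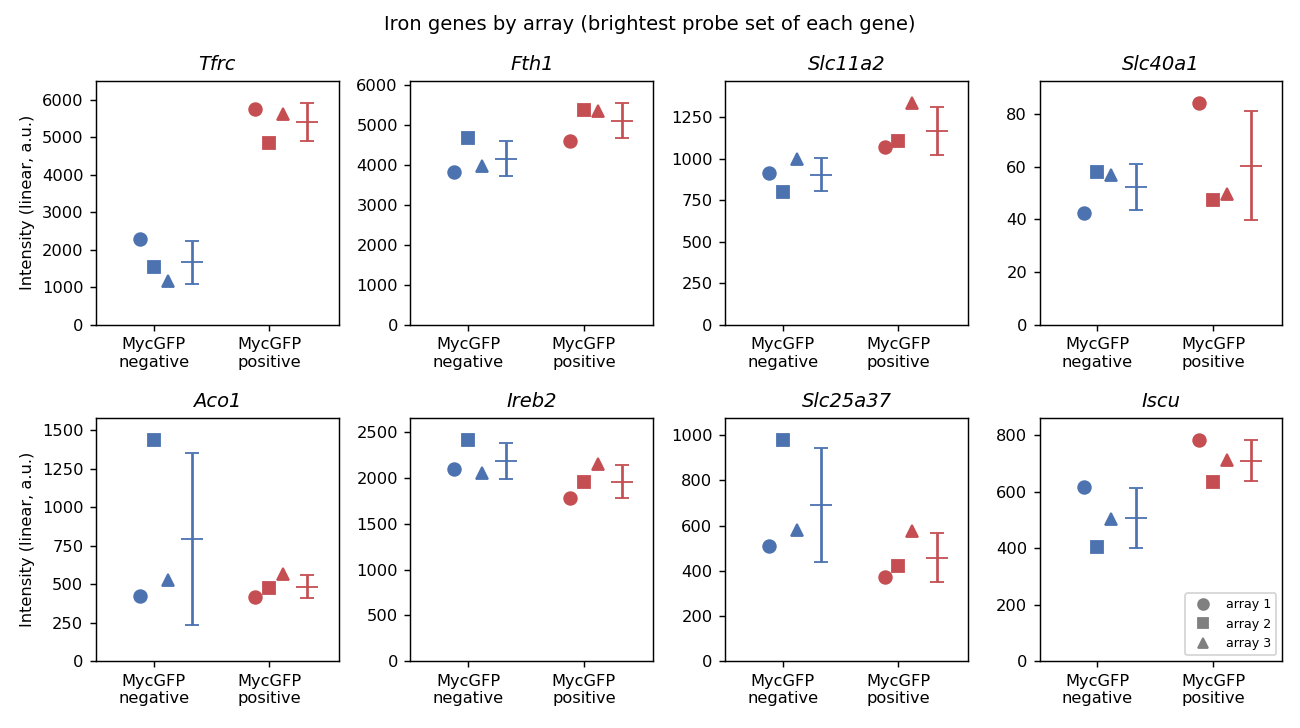
Linear intensity (arbitrary units) of the brightest probe set of each of 8 iron genes on 3 MycGFP negative (blue) and 3 MycGFP positive (red) arrays; the symbol shows the array number and the bar beside the points the mean and SD. Tfrc, at 2286 or less on negative and 4838 or more on positive arrays, is widely separated, and negative array 2 stands out for Aco1 and Slc25a37.

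The other Tfrc probe sets read the same direction at lower intensity. Probe set 1422966_a_at read 559.6, 407 and 211 on the negative and 2406, 1385 and 1179 on the positive arrays, a log2 difference of 2.12 (SE 0.43, limma adjusted p = 0.0415 over all probe sets). Probe set 1422967_a_at read 37.6, 37.5 and 108 against 272, 169 and 217, a difference of 2.01 (SE 0.45, limma adjusted p = 0.0529), which missed the threshold. The groups were separated in both. Beside these, 4.76% of all probe sets were called higher and 2.16% lower. The array also carries 3 control probe sets along the Tfrc transcript, which stayed out of the fit and have no test. The 3' one read 499, 362 and 190.2 on negative and 2146, 1148 and 1043 on positive arrays. The middle one read 86.7, 58.9 and 107.7 against 281, 145 and 217. The 5' one read 19.3, 17.3 and 17.8, below the array medians, against 92.3, 57.8 and 69.6. All 3 were separated, with log2 differences of 2.07 for the 3' and 1.33 for the middle one, and none is given for the 5' one because its negative values are at background. Dividing the 3' by the 5' control of a bright transcript shows how far amplification and labelling reached along it. For Gapdh this gave 1.5823 to 1.89 in negative and 1.48 to 1.5802 in positive cells, which just failed to overlap, and for actin 1.54 to 1.87 and 1.72 to 1.85, which overlapped. The part of RNA quality in the Tfrc difference was not tested.

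Tfrc was high where genes of S phase were high. The mean log2 intensity of 17 S phase genes was 9.47, 8.44 and 8.13 on negative arrays 1, 2 and 3, and 11.03, 10.84 and 10.75 on the positive arrays. The log2 intensity of Tfrc was 11.16, 10.58 and 10.19, then 12.49, 12.24 and 12.46. The negative arrays thus had the same order in both measures, while the positive arrays did not, and the part of cycling cells in the Tfrc difference was not tested. Among 10572 genes with a mean above the array median, those with the pattern most like Tfrc were Npepl1, an aminopeptidase gene, Rpa2, Exo1, Mtx2 and Hat1, with Pearson's r of 0.997 to 0.998 over the 6 arrays. Rpa2 encodes a subunit of the single-strand DNA binding complex, Exo1 a DNA repair nuclease, Mtx2 a factor of the mitochondrial outer membrane and Hat1 a histone acetyltransferase. All 5 separated the groups, as Tfrc did, and their likeness within a group was not tested.

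**Figure D2:**
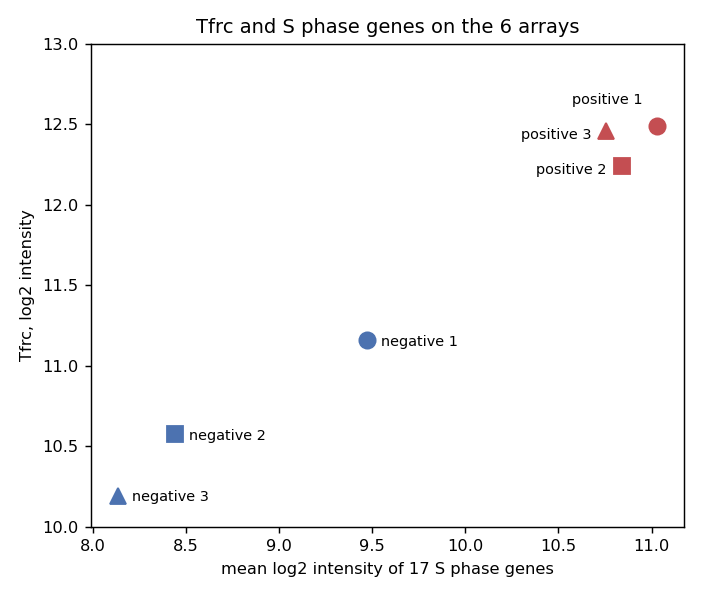
Log2 intensity of Tfrc against the mean log2 intensity of 17 S phase genes on each of the 6 arrays, MycGFP negative in blue and positive in red, with the symbol showing the array number. Negative array 1, at 9.47 and 11.16, lies between the other negative arrays and the positive arrays on both axes.

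Slc11a2, the endosomal iron transporter gene known as DMT1, did not pass in any of its 4 probe sets, which did not read alike. The brightest, 1452078_a_at, read 915, 797 and 995 on negative and 1068, 1103 and 1333 on positive arrays. These groups were separated, as were those of 17% of all genes with positive above negative, and the log2 difference was 0.37 (SE 0.16, limma adjusted p = 0.233, 95% interval -0.0057 to 0.75). Probe set 1426441_at read 117, 107 and 149.8 against 188, 399.6 and 616, a log2 difference of 1.54 (SE 0.43, limma adjusted p = 0.0917). Its 3 positive values were all higher than the negative ones and differed widely among themselves, with positive array 1 the lowest and array 3 the highest. Without that lowest positive array the difference was 2.01 and passed (limma adjusted p = 0.0442). Probe set 1417584_at rested on 1 array: positive array 2 read 2156, while the other 5 arrays lay between 159 and 278. Probe set 1441709_at was dim, with 18.2 to 19.7 in negative and 24.7 to 44.2 in positive cells (log2 difference 0.80, limma adjusted p = 0.0936). All 4 differences were positive, and without _a_at, _s_at and _x_at probe sets Slc11a2 was read by 1417584_at at 1.28 (limma adjusted p = 0.517). With its 4 probe sets averaged the difference was 0.9986 (limma adjusted p = 0.0667). Alternative Slc11a2 transcripts with and without an IRE are known, and which of them each probe set reads was not analysed here.

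Slc40a1, the gene of the iron exporter ferroportin, was near the array medians in both groups. The brighter probe set read 42.5, 57.9 and 57.0 on negative and 84.2, 47.4 and 49.6 on positive arrays. The groups overlapped, and positive array 1 alone was high. The log2 difference was 0.17 (SE 0.27, limma adjusted p = 0.796, 95% interval -0.48 to 0.82), and it was -0.10 without that array and -0.00096 after quantile normalization. The other probe set lay at 5.68 to 8.09 on all 6 arrays, below the medians. No direction can be given for Slc40a1.

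Fth1, the gene of the ferritin heavy chain that oxidises iron for storage, was bright in both groups and did not pass. Its brighter probe set read 3839, 4676 and 3982 on negative and 4616, 5384 and 5352 on positive arrays. The groups overlapped narrowly, because negative array 2 lay above positive array 1. The log2 difference was 0.30 (SE 0.14, limma adjusted p = 0.293), and its 95% interval of -0.048 to 0.65 leaves out a change of the size seen for Tfrc in the same direction. Probe set 1427021_s_at gave 0.26 (SE 0.15, limma adjusted p = 0.382), from 1861 ± 160.5 to 2239 ± 266 (SD, n = 3 each). Within arrays of the same number both probe sets were higher in the positive cell sort in 3 of 3 comparisons, by 0.20 to 0.43 on the log2 scale. Centring each array on its median, which moved the median of all genes from 0.013 to -0.14, lowered the Fth1 difference to 0.15 in the test of genes, and to 0.23 in the test of probe sets, which has its own array medians.

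Neither of the IRP genes passed. Ireb2, which encodes IRP2, the form degraded when iron is plentiful, read 2090.1, 2410.3 and 2049 on negative and 1779, 1949 and 2143 on positive arrays. The ranges overlapped, and the log2 difference was -0.16 (SE 0.14, limma adjusted p = 0.600, 95% interval -0.50 to 0.18). It was -0.085 without negative array 2, -0.091 without positive array 1 and -0.31 after median centring. Aco1, which encodes IRP1, a cytosolic aconitase when it carries an iron-sulfur cluster, read 422, 1438 and 527 on negative and 418, 475 and 565 on positive arrays. Apart from negative array 2 the 5 values lay within a narrow range that both groups shared. The log2 difference was -0.50 (SE 0.46, limma adjusted p = 0.617) with all arrays and 0.032 without negative array 2. Probe set 1456728_x_at had the same high array, at 1182 against 309 to 565 on the other 5, and its difference went from -0.41 to 0.13 without it. The dim probe set 1447080_at, at 17.7 to 20.7, showed no such array. No direction can be given for Aco1.

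Of the mitochondrial genes, Slc25a37 and Iscu had differences of opposite sign and neither passed. Slc25a37 encodes mitoferrin 1, which carries iron into mitochondria and is best known from red cell precursors. It read 510.03, 978 and 579.96 on negative and 371, 423 and 578 on positive arrays, so that negative array 2 was again highest and the groups overlapped. The log2 difference was -0.56 (SE 0.30, limma adjusted p = 0.353) and -0.28 without negative array 2. That array also had the highest neutrophil marker sum, 13007 against 3148 or less on the other 5, with S100a8 at 4467 and S100a9 at 4372. The macrophage marker sum was also highest there, at 1373, of which Lyz2 gave 850, against 571 or less on the others. Hbb-b2 was highest there too, at 370.2 beside 345 on negative array 3, while the erythroid sum, 5970, was within the range of the others. The part of RNA of neutrophils or of other cell types in the Aco1 and Slc25a37 values was not tested. Positive array 2 had the next highest neutrophil sum, and its Aco1 and Slc25a37 values lay between those of the other positive arrays. Iscu, the scaffold on which iron-sulfur clusters are built, read 616, 403 and 502 on negative and 781, 634 and 711 on positive arrays. The groups were separated, with a log2 difference of 0.50 (SE 0.19, 95% interval 0.031 to 0.97) and a limma adjusted p = 0.199 over all genes. Iscu thus failed the correction, although its values did not overlap, as was so for 17% of all genes with positive above negative.

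**Figure D3:**
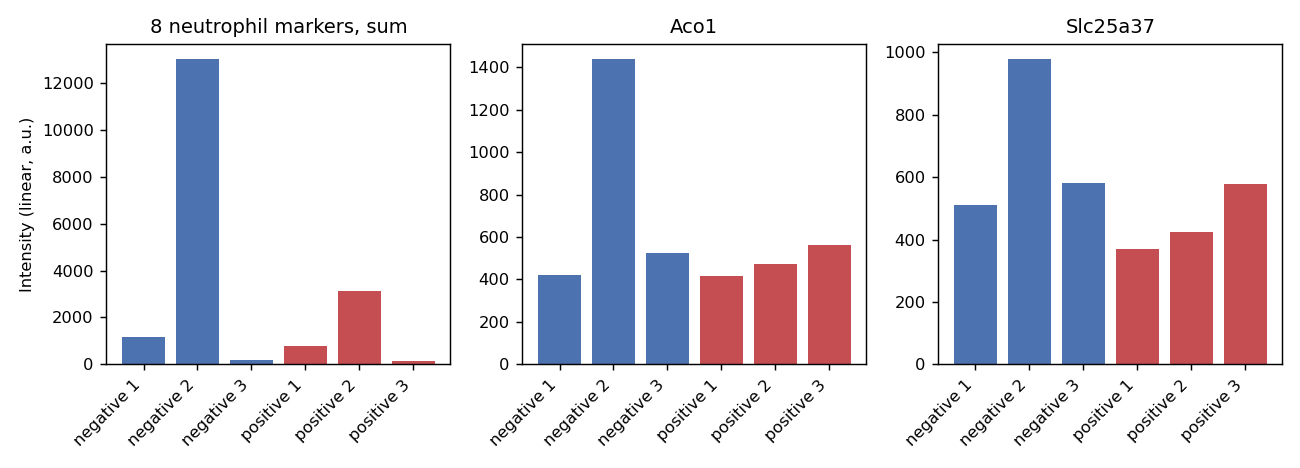
Linear intensity (arbitrary units) on each array of the sum of 8 neutrophil markers, of Aco1 and of Slc25a37, with MycGFP negative arrays in blue and positive arrays in red. Negative array 2 is the highest bar in each panel, at 13007, 1438 and 978.

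**Figure D4:**
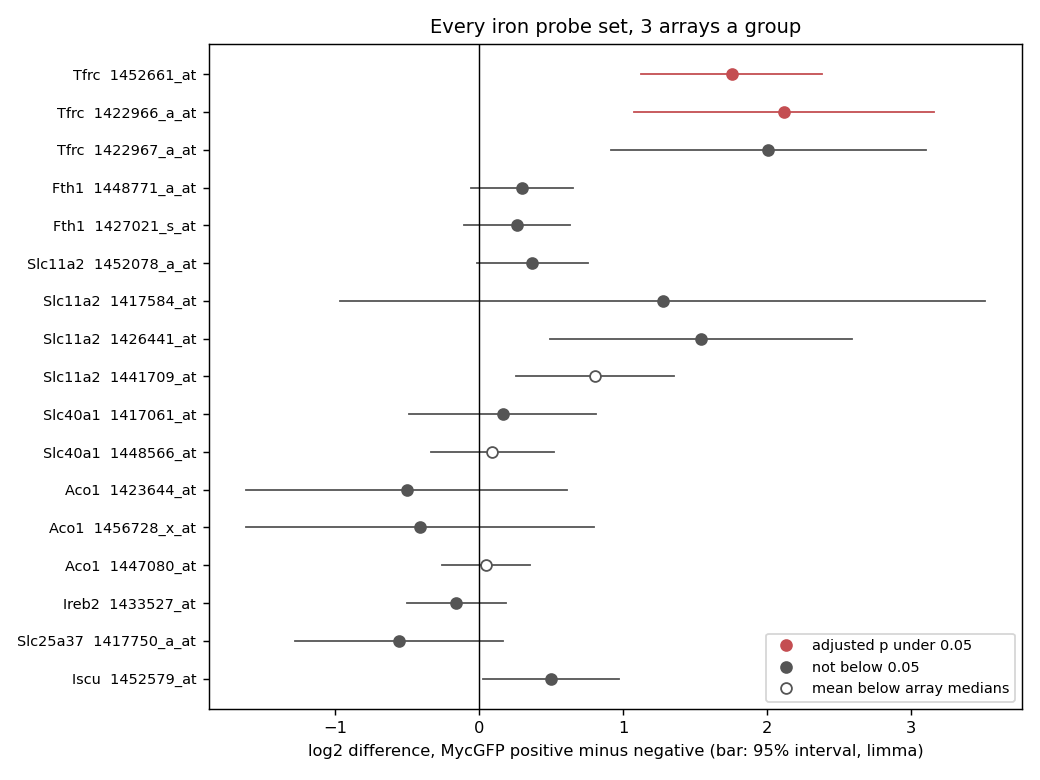
Log2 difference, MycGFP positive minus negative, of all 17 iron probe sets, with bars for the 95% interval of the limma fit. The 2 red points, both Tfrc, passed at an adjusted p under 0.05, and open circles mark probe sets with a mean below the array medians.

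Across the 8 genes, limma called 1 higher and 0 lower; without the adjustment, a p under 0.05 was reached by 2 higher genes, Tfrc and Iscu, and 0 lower genes. Over all genes the calls were 4.62% and 1.51%, and 14.7% and 7.35% without the adjustment. The median log2 difference was 0.23, against 0.013 over all genes. All 8 had a mean above the array median, and over all genes with such a mean the median was 0.099. The median of the 8 was 0.13 without negative array 1, 0.14 without positive array 1, 0.082 after median centring and 0.13 after quantile normalization. In 3 of the 8, Tfrc, Slc11a2 and Iscu, the positive arrays lay above the negative ones, and in 0 below, where 17% and 11.2% of all genes did so. The Tfrc mRNA level was thus the only called change, and for the storage, export and sensing genes the intervals above give what remains possible.

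The rest of the iron pathway was read from 7 lists with 97 different measured genes. Of these, limma called 20 higher and 0 lower, or 20.6% higher beside 4.62% of all genes. At an unadjusted p under 0.05 the counts were 34 and 2, beside 14.7% and 7.35% of all genes. The median log2 difference was 0.32. Most of these genes were bright. In a fit of only genes with a mean above the array median, limma called 22 of 82 pathway genes higher. It called 959 of all 10573 genes higher there, at a median log2 difference of 0.099. The lists were chosen with earlier results of these data known. With the array number as a block, Cul1 (limma adjusted p = 0.0709) and Cisd2 (0.0794) no longer passed and the other 18 did. The blocked fit again called 20 pathway genes higher, so genes outside the first 20 passed in it. It called 1047 of all genes higher and 354 lower. The 20 include Clpx, whose probe sets disagree. Fewer calls held when 1 array was left out: 10 of them without negative array 1, 4 without negative array 2 and 10 without negative array 3. Without positive array 1, 2 held, without positive array 3, 1 held, and without positive array 2, or both arrays numbered 2, 0 held. Over all genes, the higher calls in the fits without 1 array ranged from 0 to 862. At an unadjusted p under 0.05 those fits had 32 to 38 pathway genes higher, beside 34 with all arrays. Every fit that left out 1 array ended the calls of 8 genes: Slc39a8, Cul1, Bola1, Abcb8, Ciapin1, Cisd2, Clpx and Rtel1. Centring on the array median kept 10 and ended those of Slc39a8, Slc48a1, Cul1, Ndufab1, Abcb8, Ciapin1, Cisd1, Cisd2, Clpx and Blvra, and quantile normalization kept 11. The S phase genes given above were higher in positive cells, as the 20 called genes were, and the part of cycling cells in the counts was not tested.

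Among 21 other genes of iron transport, 2 rose and 0 fell, where 4.62% and 1.51% of all genes did. These calls are too few to set the list apart from all genes. The median log2 difference was -0.0060, and its sign changed when some arrays were left out (0.12 without negative array 2). Slc39a8, which encodes ZIP8, a zinc, manganese and iron importer, rose 2.80-fold, from 208.1, 328 and 208.2 to 484, 738 and 869 (limma adjusted p = 0.0415), with an adjusted p of 0.0595 to 0.138 when any 1 array was left out. Slc48a1, a haem transporter gene, rose 2.41-fold (limma adjusted p = 0.0441), but its other probe set differed by 0.34 on the log2 scale (limma adjusted p = 0.347). Vps35, a retromer subunit gene for the recycling of endosomal receptors, had a log2 difference of 0.49 (limma adjusted p = 0.0911). Tfr2, the second transferrin receptor gene, lay below the array medians on all arrays.

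The 13 genes for ferritin handling and IRP control had a median log2 difference of -0.14, or -0.29 after median centring, -0.050 without negative array 2 and 0.018 without positive array 2. Cul1, a scaffold of the ubiquitin ligases that include the IRP2 ligase, was the 1 of them that rose, 1.84-fold (limma adjusted p = 0.0451). Beside the 4.62% of all genes called higher, 1 call in 13 genes does not set the list apart. Bach1, a haem-regulated repressor of the ferritin and haem oxygenase genes, had a log2 difference of -0.65 and missed the threshold (limma adjusted p = 0.0616), which it passed in 4 alternatives, among them median centring (0.0378). Its values were 8575, 8369.7 and 7568 on negative and 4438, 5647 and 5632 on positive arrays, with no overlap. Pcbp1, an iron chaperone that loads ferritin, differed by 0.36 (limma adjusted p = 0.127). Ncoa4, the receptor for ferritin breakdown, and Fbxl5, the iron-sensing subunit of the IRP2 ligase, gave -0.22 and -0.33 (limma adjusted p = 0.440 and 0.485), the second -0.089 without negative array 1.

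Of 17 genes for mitochondrial iron-sulfur assembly, 4 rose and 0 fell, beside 4.62% and 1.51% of all genes. The median log2 difference was 0.76, or 0.47 after quantile normalization. A difference above 0 was seen for 16 of them, and for 9392 of all 18193 genes. Hspa9, the chaperone that helps to pass clusters on from the scaffold, read 1893, 1985 and 1931 on negative and 3949, 4121 and 4242 on positive arrays. It rose 2.12-fold (log2 difference 1.08, SE 0.11, limma adjusted p = 0.0122), with little spread within either group. Ndufab1, the acyl carrier protein of the assembly complex and of respiratory complex I, rose 1.78-fold. Abcb8, a mitochondrial transporter gene linked to iron export, rose 2.23-fold, from 58.6 ± 7.03 to 133 ± 35.1 (SD, n = 3 each). Bola1, a mitochondrial cluster assembly factor, rose 2.47-fold, and its other probe set, at the background level, gave -0.17. Nfs1, the cysteine desulfurase that supplies sulfur to the Iscu product, differed by 0.76, or 0.47 after quantile normalization, and did not pass (limma adjusted p = 0.101).

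Of 12 genes listed under cytosolic iron-sulfur assembly, 3 rose and 0 fell, beside 4.62% and 1.51% of all genes. The median was 0.22, or 0.069 after median centring and 0.027 after quantile normalization. The list also holds Cisd1 and Cisd2, which encode membrane cluster proteins and not assembly factors. Of the 3 called genes only Ciapin1 belongs to the assembly pathway. Cisd1, which encodes the outer membrane iron-sulfur protein mitoNEET, rose 2.75-fold, from 515, 406 and 681 to 1922, 1182 and 1304 (limma adjusted p = 0.0355). Its probe set 1416849_at differed by 1.29 on the log2 scale (limma adjusted p = 0.0661 over all probe sets). A further one, 1443822_s_at, had overlapping groups and differed by 0.44 (limma adjusted p = 0.841). Ciapin1, an electron carrier of the cytosolic pathway, rose 1.84-fold and Cisd2, a mitoNEET relative, 1.78-fold. A further Ciapin1 probe set, 1448140_at, passed at 0.80 (limma adjusted p = 0.0422 over all probe sets). Probe set 1440356_at gave 0.086 (limma adjusted p = 0.937) and the dim 1441943_x_at 0.035 (limma adjusted p = 0.950). With the probe sets of each gene averaged, Cisd1, Ciapin1 and Cisd2 no longer passed. Of the further Cisd2 probe sets, 1430992_s_at passed at 0.92 (limma adjusted p = 0.0290 over all probe sets). The other, 1429283_at, had a difference of -0.82 and was not called (limma adjusted p = 0.125).

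Of 20 genes for haem synthesis and breakdown, 5 were called higher and 0 lower, beside 4.62% and 1.51% of all genes. The median was 0.47, or 0.28 after quantile normalization. Alad, an early enzyme of haem synthesis, rose 3.34-fold, from 187 ± 45.1 to 619.9 ± 135 (SD, n = 3 each, limma adjusted p = 0.0225). Abcb6, a porphyrin transporter gene, rose 2.92-fold, Pgrmc1, a haem-binding membrane protein gene, 2.32-fold, and Blvra, a biliverdin reductase gene, 2.12-fold. The probe sets of Clpx, a mitochondrial protease subunit that activates haem synthesis, passed in opposite directions: 1423447_at at a log2 difference of 0.90 and 1439342_at at -1.49 (limma adjusted p = 0.0268 and 0.0256 over all probe sets). Clpx is therefore given no direction, which leaves 4 of the 5 genes with one.

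Of 13 iron enzymes of DNA and nucleotide metabolism, 5 rose and 0 fell, beside 4.62% and 1.51% of all genes, at a median of 0.83. Pole and Pold1, the catalytic subunits of DNA polymerases epsilon and delta, rose 9.14-fold and 5.35-fold, and Dna2, a nuclease and helicase with an iron-sulfur cluster, rose 6.59-fold (limma adjusted p = 0.0103). Prim2, the iron-sulfur subunit of primase, rose 1.78-fold, from 1132 ± 23.7 to 2018 ± 39.3 (SD, n = 3 each). Rtel1, a helicase gene, rose 2.47-fold in a probe set of the _s_at kind. Probe set 1456729_x_at differed by 1.09 (limma adjusted p = 0.0720 over all probe sets). The dim 1435516_x_at gave 0.13, and another dim one, at 5.63 in positive cells, gave -0.14. Rrm2, the iron-bearing subunit of ribonucleotide reductase, differed by 0.41 (limma adjusted p = 0.486), and by 1.53 with its probe sets averaged (limma adjusted p = 0.0891).

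Of the other mRNAs known to carry an IRE, 3 were measured, at a median of -0.96, and limma called 0, with 1 lower at an unadjusted p under 0.05. Epas1, which encodes the hypoxia factor HIF2 alpha, read 3276, 4884 and 6890.1 on negative and 471, 2970.0 and 3554 on positive arrays (log2 difference -1.49, limma adjusted p = 0.354). Without positive array 1, which was far below the others, it was -0.56. The groups overlapped at negative array 1 and positive array 3. Cdc14a differed by 0.090, with the sign changing under 2 scalings, and Alas2, the red cell form of the first haem enzyme, was near background at 28.4 and 13.8 (limma adjusted p = 0.116).

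**Figure D5:**
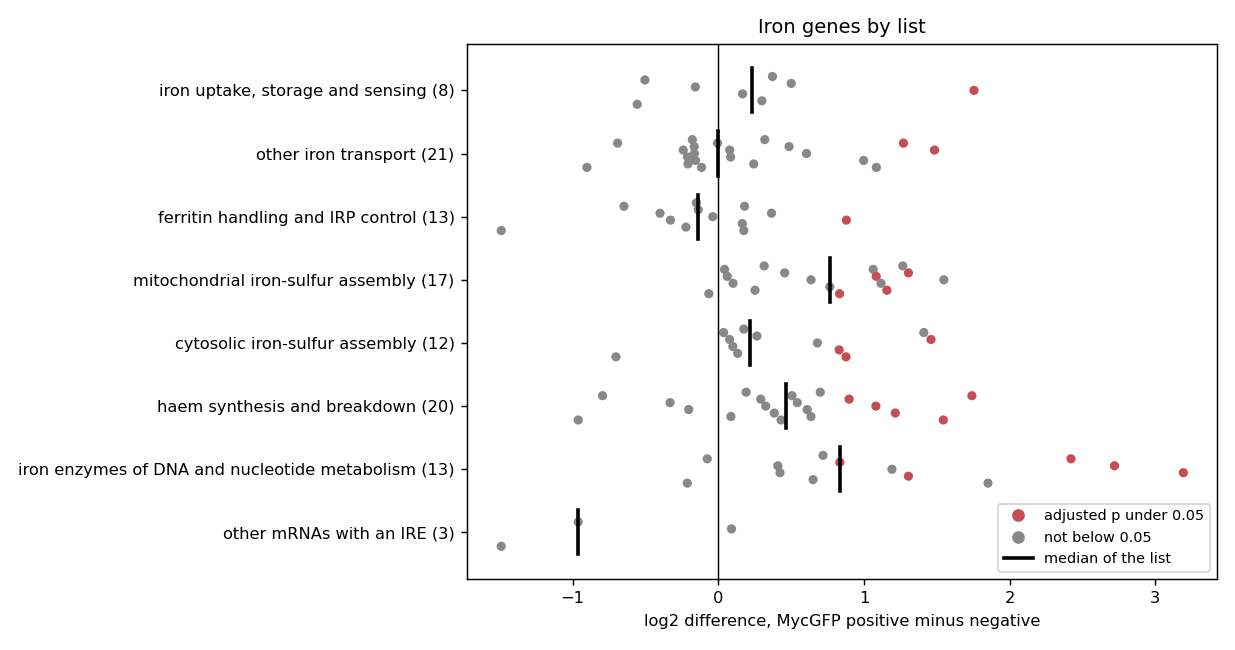
Log2 difference, MycGFP positive minus negative, of each measured gene of 8 iron lists, with the number of genes in brackets; red points passed at an adjusted p under 0.05 and black bars mark the list medians. Red points lie only to the right of 0, with the largest, Pole, at 3.19.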

How the data were processed

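What the authors deposited are linear-scale intensities. The submitters' processing notes name RMA as the authors' method, without a version. RNA, 5 ng per sample, was amplified before labelling per the labels' protocols, which can favour 3' ends. Log2 of the intensity was taken. Gene symbols came from the platform annotation: 34945 probe sets had 1 symbol, 932 several and 9160 none, and 64 control probe sets stayed out of the fits. Each gene was read by its probe set with the highest mean log2 intensity over all 6 arrays.

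Genes and, separately, probe sets were tested in limma 3.58.1 (R 4.3.3) by lmFit and eBayes on 2 groups without covariates. Tests were two-sided, p-values were adjusted by Benjamini-Hochberg over the whole table, and 0.05 was the threshold. The fit was tested on simulated data. The number of arrays limits the precision, and p-values measure the spread between these arrays only. The labels do not tie array numbers to leukaemias. Across genes, deviations from the group mean correlated at r = 0.38, 0.21 and 0.39 between equally numbered arrays and at -0.32 to -0.032 between others. Deviations cancel out within a group, so the values for equal and for other numbers are not independent of each other. A shared leukaemia and another source shared by equally numbered arrays cannot be told apart here. That the numbers pair the arrays is thus an assumption. A fit blocked on the number is reported where it ended a call, and for the iron set and the pathway counts.

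The iron genes and all lists were chosen with earlier results of these data known. Named were all 9 genes, of each list its 3 bright genes with the smallest p and all called genes where 5 or fewer were called, Myc and the 5 genes most like Tfrc; Ncoa4, Fbxl5, Nfs1, Rrm2, Tfr2, Alas2 and the marker genes were added after their values were seen.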

Additional observations from a re-analysis of the deposited data

How the results depend on the processing

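The block by array number changed no call of the iron set: Tfrc kept adjusted p = 0.0302. Counts over all genes, 840 higher and 275 lower, ranged over 0 to 862 and 0 to 238 when one array was left out, and those over probe sets, 1664 and 754, over 0 to 1625 and 0 to 665. For the iron set the range was 0 to 1 gene and 0 to 2 probe sets higher, and for the 97 pathway genes 0 to 12 higher. Myc ranged from 1.16 to 1.52, and its call ended without negative array 2 or without any one positive array. Leaving out both arrays numbered 2, chosen after seeing the data, left limma with 0 calls over all genes, all probe sets, the iron set and the pathway, at 1728 genes higher and 759 lower with an unadjusted p under 0.05, and with Myc at 1.26. Higher genes numbered 502 after median centring and 510 after quantile normalization, of which the pathway held 10 and 11, and 13 with all probe sets of a gene averaged. In the iron set 1 probe set passed after quantile normalization or with a pseudocount of 16. Lower pathway genes numbered 1, Bach1, after centring, with trended and robust variance, with that pseudocount and with averaged probe sets.

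Sign changes of named genes and probe sets, none called in that setting, were these. Aco1 was at 0.032 without negative array 2 (-0.85 without negative array 1) and 0.042 without both arrays numbered 2, its _x_at probe set at 0.13 in both (-0.77 without negative array 1), and its dim probe set at -0.0056 without positive array 1 (0.10 without positive array 2) and -0.014 after centring. Slc40a1 was at -0.10 without positive array 1 (0.31 without positive array 2) and -0.00096 after quantile normalization, and its dim probe set at -0.022 without negative array 2 (0.23 without negative array 3). Bola1 was at -0.17 and Rtel1 at -0.14 without _a_at, _s_at and _x_at probe sets, where probe sets at background read both. Clpx was at -0.30 with averaged probe sets. Cdc14a was at -0.015 without negative array 3, -0.024 without positive array 2 (0.15 without positive array 1), -0.060 after centring, -0.20 after quantile normalization and -0.52 with averaged probe sets. The markers Il2ra (0.0017 without negative array 3, 0.042 without positive array 1, -0.36 without positive array 3) and Hba-a2 (0.11 without negative array 1, -0.11 without positive array 1, 0.087 and 0.0059 without positive arrays 2 and 3, 0.037 without both arrays numbered 2, 0.0026 after quantile normalization) also changed sign, from -0.18 and -0.0070. The cause was not tested, except that other probe sets read Bola1, Rtel1 and Clpx.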
